A study of Sus scrofa with 12 samples.

Results

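Transcripts of mitochondrial protein import and mitochondrial dynamics were compared in the liver of piglets scored high or low for SINS (swine inflammation and necrosis syndrome), in which suckling piglets show inflamed and necrotic tail, ears, teats and claws. Members were all genes whose single symbol in the array annotation matched a fixed rule of name patterns. These cover TIM, TOM and SAM components, import motor proteins, presequence peptidases, CHCHD and MICOS proteins, fusion and fission factors, and mitochondrial proteases and prohibitins. The patterns do not reach every gene of these classes, and HSPA9, APOOL, MIEF1 and PARL, for example, were read in separate lists. This rule found 32 genes, read by 34 transcripts, of the 12307 genes with a single symbol. A gene with several transcripts was read from its brightest one by mean log2 value, and no filter on low values was applied, so all 32 were tested. The 2 transcripts of TIMM8B held the same values. Another 2 transcripts carry a matching symbol beside a second one (TOMM5 with FBXO10, and CHCHD2 with LOC100513317) and were left out. TOMM40, SAMM50, MTX2, TIMM10, TIMM13, TIMM17A, TIMM17B, TIMM22, TIMM23, TIMM50, GRPEL1, PMPCA, IMMT, MFN1, FIS1, MFF, PHB2, AFG3L2 and SPG7 were not analysed here.

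Mitochondria make only a handful of their own proteins and import the rest from the cytosol. A protein enters through the TOM pore of the outer membrane and is then sorted. Presequence proteins pass the TIM23 channel, pulled by the matrix chaperone mtHSP70, and lose their presequence to peptidases. Carrier proteins are escorted by the small TIM chaperones to TIM22, and cysteine-rich proteins are trapped by CHCHD4 between the membranes. The shape of the organelle is set by fusion (MFN2 and OPA1), fission (DNM1L) and the MICOS complex that holds the cristae, and proteases and prohibitins of the inner membrane and matrix keep its proteins in order. Hepatocytes, which carry out fatty acid oxidation, the urea cycle and gluconeogenesis, are rich in mitochondria.

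The liver was sampled on the third day of life from piglets of Baden-Württemburg Genetics hybrid sows and Pietrain semen, with 1 array per piglet. The SINS low group held the 6 piglets with the lowest scores, with absent or mild signs, and the SINS high group the 6 with the highest scores. The labels call every sample mixed-sex, and the sow of each piglet is not given, so piglets of a group may be related. The authors processed the arrays together with RMA into a log2 value for each transcript, whose median lay between 4.36 and 4.42 per array. All 10 hepatocyte markers measured had signal, with a mean log2 value of 11.2 to 11.56 per piglet in the SINS low group and 11.36 to 11.49 in the SINS high group. Values of different genes come from different probes and are not compared with each other as amounts.

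Of the 32 members, 5 were down-regulated with high SINS scores, 0 up-regulated, and 27 missed the filter of the study, a fold change above 1.3 with an unadjusted p below 0.05, here from limma. The down-regulated members were DNM1L, TOMM20, TIMM9, TIMM8A and CHCHD3, that is the fission GTPase, a receptor of the TOM pore, a pair of small TIM chaperones and a subunit of MICOS. The share of 15.6% compares with 3.80% of all named genes down-regulated (2.30% up-regulated) and with 3.04% of all transcripts, named or not (2.12% up-regulated). Of the 32 members, 28 had a negative log2(FC), that is 87.5%, against 49.3% of all named genes, and their median log2(FC) was −0.24, against 0.00 for all named genes. At an unadjusted p below 0.05 alone, 12 members were lower and 0 higher, against 7.98% and 5.16% of all named genes. After Benjamini-Hochberg adjustment over all 25388 transcripts, 0 members lay below 0.05 with limma (smallest adjusted p = 0.28), as was true of all transcripts (smallest adjusted p = 0.254), and with the methods' t-test likewise 0 members did (smallest adjusted p = 0.413). An exact permutation test over all assignments of the piglets to the groups was also run for each of the 32 members and is two-sided. Its smallest possible p is 0.00216, and 10 members had an exact p below 0.05, all of them lower, against 7.00% of all named genes lower by this test.

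**Figure D1:**
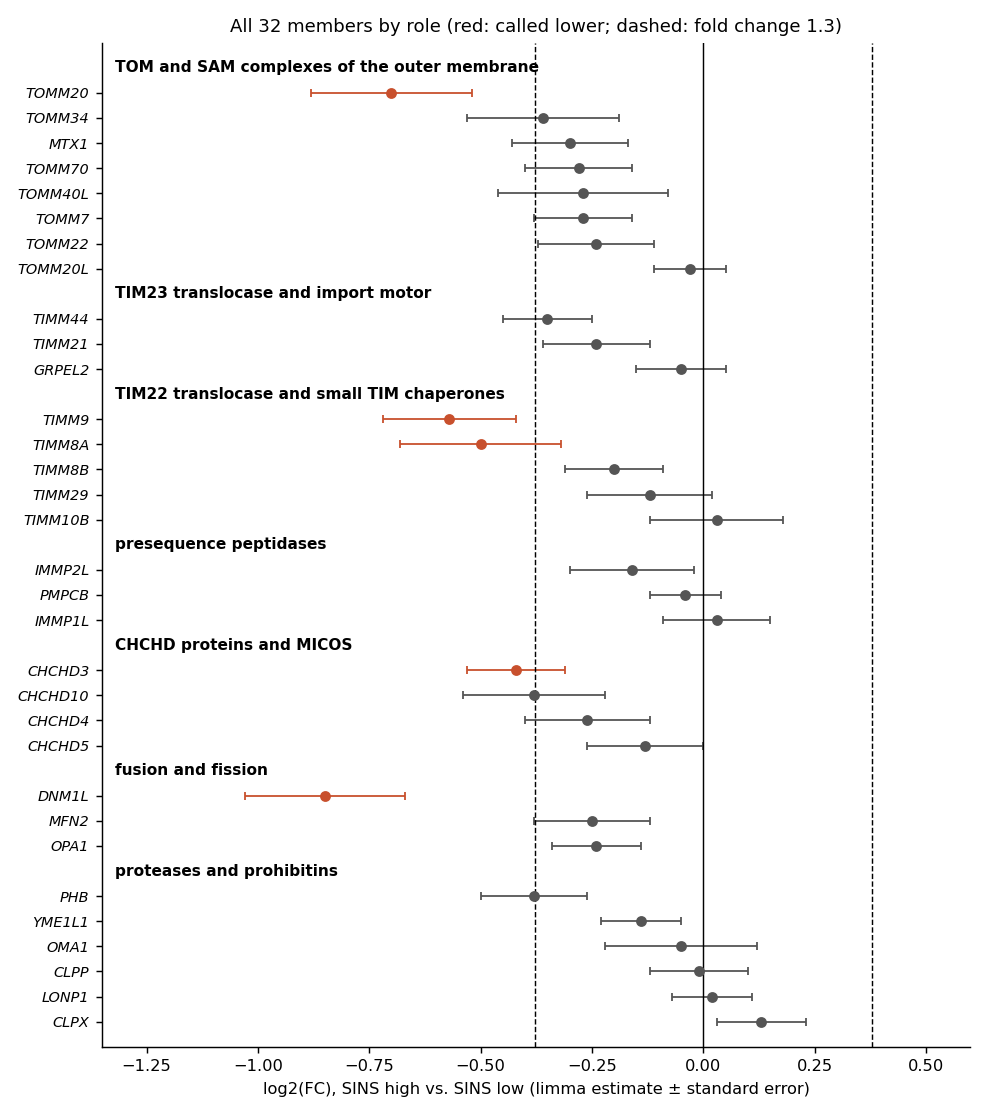
log2(FC) of SINS high against SINS low piglets (horizontal axis, limma estimate with its standard error, n = 6 per group) for each of the 32 members, grouped by role. The 5 down-regulated members are in red at −0.42 to −0.85, 28 of the 32 points lie left of 0, and the dashed lines mark the fold change of 1.3.

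DNM1L, which encodes the dynamin-related GTPase that constricts mitochondria during fission, had the lowest log2(FC) of the members. Its log2 value lay between 6.44 and 7.28 in the SINS low group (median 6.965) and between 5.61 and 6.69 in the SINS high group (median 5.96). All SINS high piglets but replicate 6 lay below every SINS low piglet, and only replicate 6 fell into the SINS low range. SINS high piglets averaged 6.03 ± 0.36 and SINS low piglets 6.88 ± 0.33 (SD, n = 6), a 1.8-fold decrease. The log2(FC) was −0.85 (standard error 0.18, exact p = 0.00649, adjusted p = 0.28 from limma). MFN2, the mitofusin that joins outer membranes, and OPA1, the GTPase that fuses inner membranes, did not pass the filter. MFN2 had −0.25 (standard error 0.13, exact p = 0.0931) and OPA1 −0.24 (standard error 0.10, exact p = 0.0303). The log2(FC) of DNM1L minus that of OPA1 was −0.61 (standard error 0.17), and minus that of MFN2 −0.60 (standard error 0.17). These and 3 further pairs were chosen after the values of the members were seen, so all 5 differences are given as descriptions, without p-values.

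Of the outer membrane genes, 1 of 8 was down-regulated, and all 8 had a negative log2(FC), with a median of −0.27. TOMM20, the receptor that binds presequences at the TOM pore, lay between 7.46 and 8.28 in the SINS low group (median 7.74) and between 6.49 and 7.61 in the SINS high group (median 7.055). Here too SINS high replicate 6 was the only SINS high piglet inside the SINS low range. The means were 7.80 ± 0.31 and 7.09 ± 0.39 (SD, n = 6) in SINS low and SINS high piglets, a 1.63-fold decrease, and the log2(FC) was −0.70 (standard error 0.18, exact p = 0.00866, adjusted p = 0.28 from limma). The other TOM subunits had smaller values. TOMM22, the central receptor, had −0.24 (exact p = 0.108), TOMM70, the receptor for carrier proteins, −0.28 (exact p = 0.0649), and TOMM7, a small subunit of the pore, −0.27 (exact p = 0.0303). The log2(FC) of TOMM20 minus that of TOMM22 was −0.47 (standard error 0.17), again as a description. MTX1, a metaxin of the SAM complex that inserts barrel proteins, had −0.30 (exact p = 0.0476). TOMM34, a cytosolic cochaperone of import, had −0.36 (exact p = 0.0823) and TOMM40L, a relative of the pore protein, −0.27 (exact p = 0.249). TOMM20L, a relative of TOMM20, was dim at a mean log2 value of 2.62 and had −0.03 (exact p = 0.63).

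**Figure D2:**
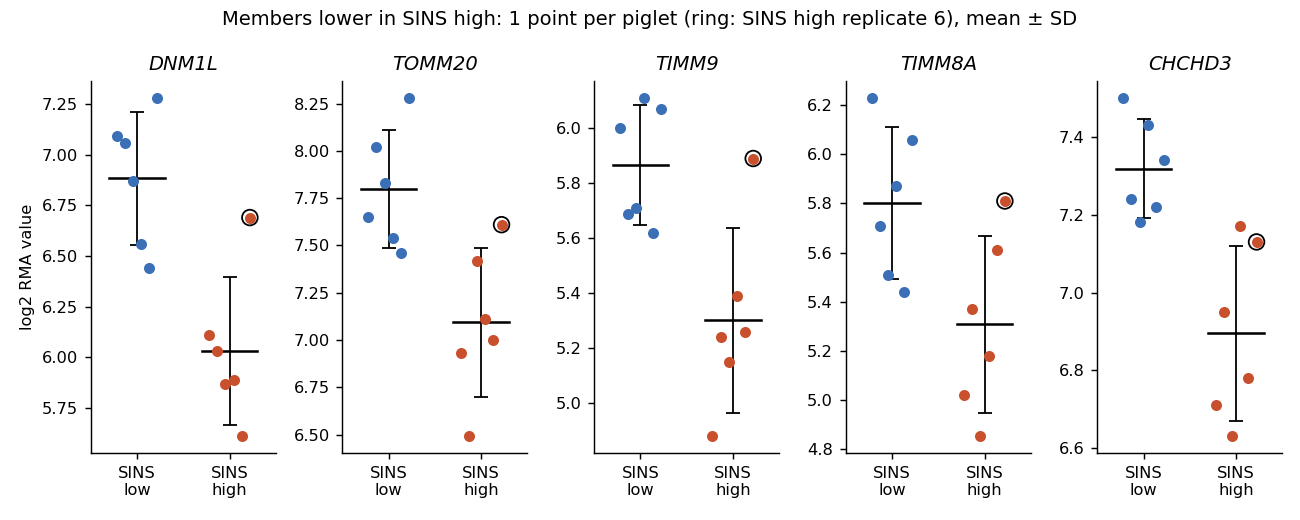
log2 values (vertical axis, a separate scale per panel) of the 5 down-regulated members in 6 SINS low (blue) and 6 SINS high piglets (red), with the mean and SD of each group, and SINS high replicate 6 ringed. In 4 of the 5 panels the ringed piglet lies inside the range of the SINS low group, and for CHCHD3 all SINS high piglets lie below it.

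The small TIM chaperones, which shield hydrophobic proteins between the membranes, held 2 further down-regulated members. TIMM9, which forms a ring with TIMM10, ranged from 5.62 to 6.11 in the SINS low group (median 5.855) and from 4.88 to 5.89 in the SINS high group (median 5.25). Again 5 of 6 SINS high piglets lay below the lowest SINS low piglet, and replicate 6 lay among the SINS low values. Its log2(FC) was −0.57 (standard error 0.15, exact p = 0.00866, adjusted p = 0.28 from limma), a 1.48-fold decrease. TIMM9 and TOMM20L overlap each other in the RefSeq annotation of the pig genome (Sscrofa11.1). TIMM8A, the partner of TIMM13 whose human counterpart is mutated in a deafness-dystonia syndrome, ranged from 5.44 to 6.23 in the SINS low group (median 5.79) and from 4.85 to 5.81 in the SINS high group (median 5.275). The groups overlapped more than for TIMM9, with SINS high replicates 5 and 6 inside the SINS low range. Its log2(FC) was −0.50 (standard error 0.18, exact p = 0.0346, adjusted p = 0.338 from limma). Its paralog TIMM8B had −0.20 (standard error 0.11, exact p = 0.0866), and the difference between the paralogs was −0.29, with an interval from −0.61 to 0.02 at 95%. TIMM29, a subunit of the TIM22 translocase, had −0.12 (exact p = 0.448), and TIMM10B, another small TIM of that complex, 0.03 (exact p = 0.851).

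Of the 3 members of the TIM23 route, TIMM44, TIMM21 and GRPEL2, 0 passed the filter. The channel protein TIMM23 itself was not among the members. The paper lists a transcript described as the Tim23 subunit, under a symbol outside the rule, among its down-regulated ones. TIMM44, which anchors mtHSP70 to the channel, had the smallest p from limma of the members that missed the filter. It lay between 5.96 and 6.34 in the SINS low group (median 6.265) and between 5.61 and 6.07 in the SINS high group (median 5.90). The 5 SINS high piglets other than replicate 6 were below every SINS low piglet, and 5 of 6 SINS low piglets were above every SINS high piglet. The difference of −0.35 on the log2 scale (standard error 0.10, exact p = 0.00433, adjusted p = 0.28 from limma) is a fold change of 1.28, below the filter. TIMM21, which links TOM to TIM23, had −0.24 (exact p = 0.0779), and GRPEL2, a nucleotide exchange factor of mtHSP70, −0.05 (exact p = 0.561). Of the 3 presequence peptidases 0 passed the filter, and the median of their log2(FC) was −0.04. PMPCB, a subunit of the matrix processing peptidase, had −0.04 with an interval from −0.21 to 0.14 at 95% (exact p = 0.63). IMMP1L and IMMP2L of the inner membrane peptidase had 0.03 (exact p = 0.736) and −0.16 (exact p = 0.331).

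CHCHD3, a subunit of MICOS also known as MIC19, was the only member whose groups did not overlap, which was seen for 0.244% of all named genes with the SINS high group below. It lay between 7.18 and 7.50 in the SINS low group (median 7.29) and between 6.63 and 7.17 in the SINS high group (median 6.865). The gap between the groups was thus narrow. Its log2(FC) was −0.42 (standard error 0.11, exact p = 0.00216, adjusted p = 0.28 from limma), a 1.34-fold decrease, and without SINS high replicate 3 it was −0.37, below the fold change of the filter. CHCHD10, a protein of the space between the membranes, had −0.38 (standard error 0.16, exact p = 0.0584), with a fold change just under the filter. CHCHD4, the oxidoreductase that folds cysteine-rich proteins there, had −0.26 (exact p = 0.123), and CHCHD5 had −0.13 (exact p = 0.335).

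Of the 6 proteases and prohibitins 0 passed the filter, and their median log2(FC) was −0.03. PHB, the prohibitin that forms ring scaffolds in the inner membrane, ranged from 7.97 to 8.57 in the SINS low group (median 8.355) and from 7.65 to 8.19 in the SINS high group (median 7.945). Its groups overlapped, with 3 SINS high piglets below every SINS low piglet. Its log2(FC) was −0.38 (standard error 0.12, exact p = 0.0152, adjusted p = 0.297 from limma), just under the fold change of the filter. A second, dim PHB transcript with a mean log2 value of 2.23 had −0.50 (exact p = 0.0152) and passed the filter. Among the ATP-dependent proteases, LONP1 of the matrix had 0.02, with an interval from −0.17 to 0.21 at 95% (exact p = 0.788). CLPP, the proteolytic chamber of the ClpXP protease, had −0.01 (exact p = 0.933), and CLPX, its unfolding partner, 0.13 (exact p = 0.156). The log2(FC) of CLPX minus that of CLPP was 0.15, with an interval from −0.16 to 0.46 at 95%. YME1L1 and OMA1, which both cleave OPA1, had −0.14 (exact p = 0.0909) and −0.05 (exact p = 0.814).

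The mean level of the members also differed between piglets of the same group. The mean difference of all 32 members from the SINS low group mean lay between −0.17 and 0.23 in the SINS low piglets. In the SINS high group it lay between −0.34 and −0.21 in replicates 1 to 5 and at 0.01 in replicate 6. SINS high replicate 6 had the highest value of its group for 20 of the 32 members and the lowest for 2, CLPX and TOMM34. SINS low replicate 6 had the highest value of its group for 18. SINS low replicate 5 had the lowest value of its group for 15 members. For the 5 down-regulated members, SINS high replicates 1 to 4 lay below the whole SINS low range in all 5, replicate 5 in 4 and replicate 6 in 1. Without SINS high replicate 6, 9 members were down-regulated, with TIMM44, PHB, CHCHD10 and TOMM40L added, and 31 of 32 had a negative log2(FC), while the share of all named genes down-regulated was 6.20%. DNM1L and TIMM9 then had adjusted p-values of 0.0289 and 0.0386 from limma. In that setting 171 of all 25388 transcripts had an adjusted p below 0.05 from limma. Leaving out the piglet of a group that lies nearest to the other group widens the difference by itself. Without SINS low replicate 5, 8 members were down-regulated, with TIMM44, PHB and CHCHD10 added, while the share of all named genes down-regulated was 4.81%. The spread within groups, as pooled SD, ran from 0.10 for TOMM20L and PMPCB to 0.38 for TOMM40L.

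**Figure D3:**
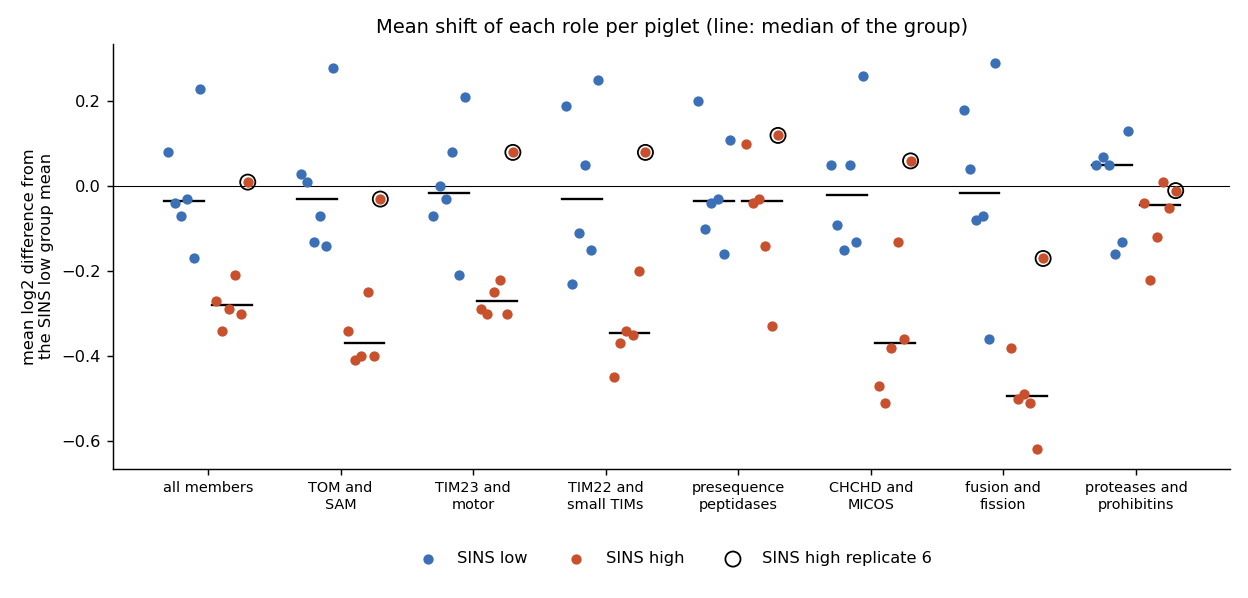
Mean difference in log2 value from the SINS low group mean (vertical axis) over all members and over the members of each role, with 1 point per piglet and a line at the median of each group. For all members, 5 SINS high piglets lie between −0.34 and −0.21 and the ringed replicate 6 at 0.01, while the SINS low piglets lie between −0.17 and 0.23.

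Other genes of the same organelle were compared from 6 lists. Not all listed genes were read, with 6 of 9 matrix chaperones and 16 of 24 TCA cycle enzymes and porins measured. Of 6 matrix chaperones measured, 2 were down-regulated and 0 up-regulated, with a median log2(FC) of −0.38. HSPD1, the chaperonin HSP60, lay between 9.69 and 10.07 in the SINS low group (median 9.935) and between 9.04 and 9.91 in the SINS high group (median 9.355), a log2 difference of −0.51 (standard error 0.14, exact p = 0.0108). HSPA9, the mtHSP70 that pulls presequence proteins through TIM23, lay between 9.49 and 9.99 (median 9.705) and between 9.06 and 9.61 (median 9.28), with −0.41 (standard error 0.11, exact p = 0.00649). For both, only SINS high replicate 6 reached into the SINS low range. HSPE1, the HSP10 lid of the chaperonin, and DNAJC15, a J-protein of the motor, each had −0.38 with fold changes just under the filter, and TRAP1, the mitochondrial HSP90, had 0.22 (exact p = 0.147). Without SINS high replicate 6, 4 of the 6 chaperones were down-regulated. The TCA cycle enzymes and porins served as comparators at the RNA level, and mitochondrial content itself was not measured. Of these genes, 3 of 16 were down-regulated and 0 up-regulated, with a median of −0.29. VDAC2, a porin of the outer membrane, ranged from 7.93 to 8.85 in SINS low piglets (median 8.27) and from 7.48 to 8.27 in SINS high piglets (median 7.605), with −0.59 (standard error 0.17, exact p = 0.0108). DLAT of pyruvate dehydrogenase ranged from 6.85 to 7.16 (median 7.045) and from 5.96 to 6.94 (median 6.44), with −0.57 (standard error 0.14, exact p = 0.00649). For these and for IDH3A of isocitrate dehydrogenase, with −0.48 (standard error 0.14, exact p = 0.013), only SINS high replicate 6 lay within the SINS low range. CS, the citrate synthase, had −0.36 (exact p = 0.0152), and SUCLG2, a subunit of succinyl-CoA ligase, 0.24 (exact p = 0.0368). The share of negative log2(FC) in this list, 87.5%, equalled that of the import and dynamics members. Without SINS high replicate 6, 6 of these 16 genes were down-regulated. Among all named genes, 3.80% were down-regulated with all piglets and 6.20% without SINS high replicate 6.

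Of the remaining lists, 10 of 19 import, 14 of 21 quality control, 14 of 18 dynamics and 9 of 17 biogenesis genes were read here. Among the genes read, 0 passed the filter. APOO and PINK1, listed but not read here, are down- and up-regulated, respectively, in the paper's own list. Without SINS high replicate 6, 2 of 10 other import genes, 1 of 14 other fusion, fission and motility genes and 1 of 9 biogenesis regulators were down-regulated, and of 14 other quality control genes 1 was down- and 1 up-regulated. The share of all named genes then down-regulated was 6.20%. The other import, sorting and assembly factors had a median of −0.14 over 10 genes, among them HAX1 with −0.31 (exact p = 0.0411), the MICOS subunit APOOL with −0.24 (exact p = 0.0108) and GFER, which reoxidizes CHCHD4, with −0.19 (exact p = 0.24). The other quality control and stress genes had a median of −0.09 over 14 genes. Of these, PARL, a rhomboid protease, had −0.30 (exact p = 0.0541), while ATF4, ATF5 and DDIT3, transcription factors of the mitochondrial stress response, had −0.18, −0.25 and −0.05 (exact p = 0.468, 0.385 and 0.779). BNIP3L, a mitophagy receptor that also clears mitochondria from maturing red blood cells, had 0.31 (exact p = 0.113). The other fusion, fission and motility factors had a median of −0.13 over 14 genes. MIEF1, which recruits DNM1L to the outer membrane, had −0.30 (exact p = 0.126), and RHOT1, which tethers mitochondria to motor proteins, −0.25 (exact p = 0.0411). The regulators of mitochondrial biogenesis had a median of −0.01 over 9 genes, with −0.24 for TFAM, which packs mitochondrial DNA (exact p = 0.0541), 0.13 for the coactivator PPARGC1B (exact p = 0.221) and −0.45 for MYC (exact p = 0.19).

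**Figure D4:**
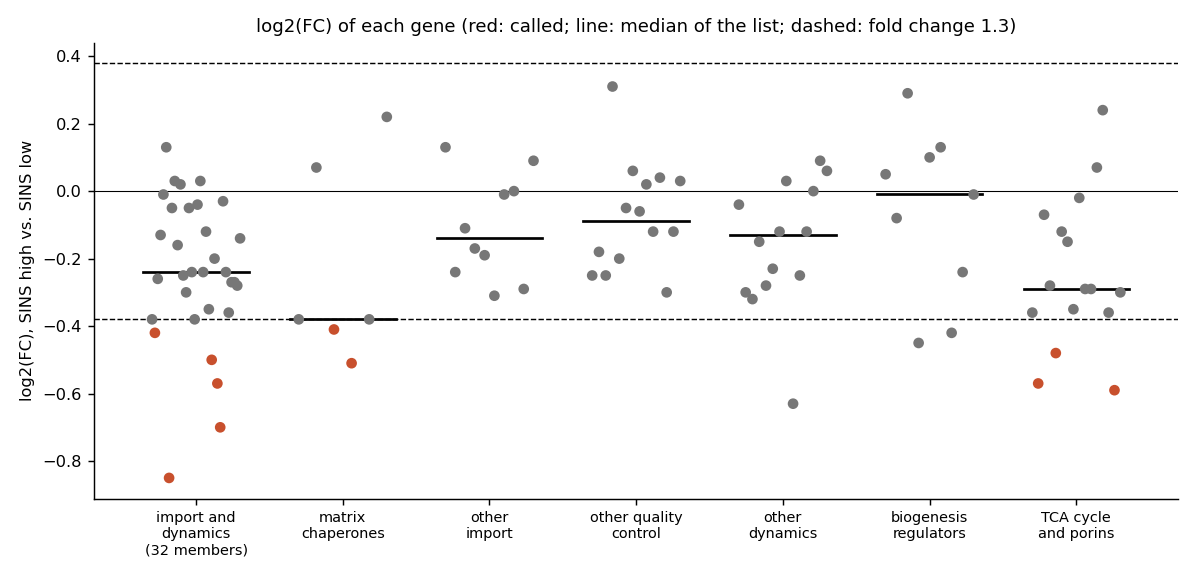
log2(FC) of SINS high against SINS low piglets (vertical axis) for each measured gene of the 32 members and of 6 lists of other mitochondrial genes, with a line at the median of each list and dashed lines at a fold change of 1.3. Medians were −0.24 for the members, −0.38 for the matrix chaperones, −0.29 for the TCA cycle and porins and −0.01 for the biogenesis regulators.

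Markers of some other cell types differed between the groups as well. Of 12 erythroid markers measured, 6 were up-regulated and 0 down-regulated. Their mean log2 value lay between 3.77 and 4.66 in the SINS low piglets and between 4.33 and 4.97 in the SINS high piglets. The beta globin HBB had 0.59 (exact p = 0.0152). No detection calls were used, and some markers were dim, such as the erythroid HBE1 and KLF1 with mean log2 values of 2.96 and 2.98. Of 12 Kupffer cell markers, 4 were up-regulated, with mean values of 6.83 to 7.36 in the SINS low group and 7.12 to 7.75 in the SINS high group. Of 9 markers of the sinusoidal endothelium 1 was up-regulated (6.79 to 7.34 against 6.93 to 7.66), and of 5 neutrophil markers 1 (3.13 to 4.72 against 3.86 to 4.96). Of 4 markers of dividing cells 1 was down-regulated (4.69 to 6.65 against 4.51 to 6.15). Bile duct and stellate cell markers had 0 of 5 and 0 of 8 past the filter. Of 10 hepatocyte markers 1 was up-regulated, with a median log2(FC) of 0.04. Without SINS high replicate 6, 7 of 12 Kupffer cell, 6 of 12 erythroid and 4 of 9 endothelial markers were up-regulated. So were 4 of 5 neutrophil and 2 of 10 hepatocyte markers. In that setting 1 erythroid, 1 bile duct and 1 dividing cell marker were down-regulated. Of all 12307 named genes, 482 were then up-regulated and 763 down-regulated. In SINS high replicate 6, the piglet whose members resembled the SINS low group, the erythroid markers were 0.51 above the SINS low mean and the Kupffer cell markers at −0.01. Its other marker lists lay at −0.17 (endothelium), 0.13 (neutrophil), 0.10 (dividing cell), −0.24 (bile duct), −0.04 (stellate cell) and −0.01 (hepatocyte). The part of these markers in the lower values of the members was not tested. In a bulk liver sample, fewer cells of a type and less RNA per cell cannot be told apart.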

How the data were processed

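Liver RNA of 12 piglets was hybridized to whole-transcript porcine arrays of Affymetrix, with 1 array each. The authors ran RMA in the Affymetrix Expression Console (background correction, quantile normalization, summary of probes) and deposited its log2 values, which were not scaled again. No scan date or detection call was used here, so batches could not be checked, and precision is limited by the number of arrays. The numbers that follow the replicate in the sample titles do not overlap between the groups, and their meaning is not given. Anything that goes with these numbers cannot be told apart from the SINS group. Correlations between arrays lay between 0.964 and 0.988, and 0 pairs were identical.

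For all 25388 transcripts a linear model without covariates was fitted in limma 3.58.1 (lmFit, then eBayes; R 4.3.3), which was tested on simulated data. The filter follows the methods, with limma in place of their t-test, and p-values were adjusted by Benjamini-Hochberg over all transcripts. Genes were named from 13257 transcripts with a single symbol, and 427 transcripts with several symbols and 11704 with none stayed unnamed. Permutation tests and figures were made in Python 3.11.15 with matplotlib 3.10.9.

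Named in more detail were all called members, the member with the smallest p of each role in each direction, the 3 members with the highest mean, and called genes of each pathway list. All other members are given by value, and further list genes were picked for their roles after their values were seen. The members and lists were chosen with earlier results of these data known. Alternatives were the methods' t-test, an intensity trend with robust eBayes, array weights, median centring, a second quantile normalization, a replicate block, a filter on the 25% dimmest transcripts, the mean of all transcripts of a gene, 1 transcript per gene, other fold changes and leaving out each array. Counts per list without SINS high replicate 6 were added after seeing the data. Enrichment, plasma metabolites and qPCR were not analysed here.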

Additional observations from a re-analysis of the deposited data

Results flagged for a closer look

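Among the genes named, 37 genes in both groups gave 74 sets of 6 values. In 4 of these, 1 piglet lay apart from the other 5 by Dixon's criterion, and chance alone marks about 5% of sets. TIMM10B was at 4.94 in SINS low replicate 2, with the nearest SINS low piglet at 5.64. CLPP was at 6.17 in SINS high replicate 2, with the nearest SINS high piglet at 6.54. GRPEL2 was at 5.81 in SINS high replicate 6, with the nearest SINS high piglet at 5.54. The porin gene VDAC2 was at 8.27 in the same piglet, with the nearest at 7.77. Of the 5 down-regulated members, 0 were marked in this way.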

How the results depend on the processing

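DNM1L and TOMM20 passed the filter under all 22 alternatives run for each. TIMM9 and TIMM8A lost their call only at a fold change above 1.5, which left 2 down-regulated members, and CHCHD3 lost it there and without SINS high replicate 3. With no fold change threshold 12 members were lower. Leaving out 1 piglet gave 4 to 9 down-regulated and 0 up-regulated members, with a median log2(FC) from −0.28 to −0.18. Over all transcripts, a fold change above 1.5 gave 251 lower and 165 higher, no threshold 1620 and 1264, 1 transcript per gene 469 and 283 of 12307 tested, and leaving out 1 piglet 550 to 1254 and 428 to 893. With the replicate block 5 members were down-regulated, the same 5, with a smallest adjusted p of 0.0733 from limma. Nothing in the labels pairs the piglets by number, and deviations of same-numbered piglets correlated between −0.000303 and 0.341 over transcripts, so the block carries no more weight. The sign turned for 8 members, all with a log2(FC) between −0.05 and 0.03. CLPP was at 0.02 after quantile normalization once more. Leaving out 1 piglet moved CLPP from −0.07 to 0.06, TIMM10B from −0.10 to 0.10, IMMP1L from −0.03 to 0.10, GRPEL2 from −0.10 to 0.01, LONP1 from −0.03 to 0.06, OMA1 from −0.14 to 0.05, and PMPCB and TOMM20L from −0.06 to 0.01. Median centring added PHB and CHCHD10 to the down-regulated members, quantile normalization TOMM34, and the mean of all transcripts PHB. The cause of these moves was not tested.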
